A study of Mus musculus with 10 samples.

Results

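Cxxc1 and 9 further genes of the SET1 histone methyltransferase complexes were followed in forelimb buds of mouse embryos with a conditional knockout of Cxxc1. The 10 genes were taken by name from a given list of subunits. All 10 were found among the 47729 genes of the count table, and all 10 passed the filter on low counts that left 20562 genes for testing. They are Cxxc1, Setd1a, Setd1b, Wdr82 and Bod1l, and the subunits Ash2l, Rbbp5, Wdr5, Dpy30 and Hcfc1. In the knockout Cxxc1 mRNA fell to 77.7% of the control level, Wdr5 rose, Wdr82 fell slightly, and the other 7 genes did not pass the test. The call of Wdr82 was lost in 9 of 24 alternative settings of the analysis.

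The libraries came from 5 control and 5 knockout embryos at stage E11.5 to E12, with 49 to 51 somites, from 4 litters. Knockouts carried Prx1Cre and floxed Cxxc1 on both alleles. Control 1 carried Prx1Cre with 1 floxed and 1 wild-type allele. Controls 2 and 4 had no Cre and 1 floxed allele, and control 3 had no Cre and floxed alleles on both chromosomes. Control 5 had floxed alleles on both chromosomes and a question mark beside Prx1Cre in its label, so its Cre status is uncertain. Every embryo carried at least 1 floxed allele. Litter A gave 2 controls (1 and 2) and 2 knockouts (1 and 2), and each remaining litter gave 1 of either kind (replicate 3 from B, 4 from C and 5 from D). Prx1Cre acts in the mesenchyme of the limb bud, so ectoderm, vessels, blood and migrating muscle precursors in the same bud are largely outside its reach, and the labels do not say which exons of Cxxc1 were floxed.

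SET1 complexes place methyl groups on lysine 4 of histone H3 (H3K4), mainly the trimethyl mark found at active promoters. SETD1A or SETD1B is the enzyme of a given complex. CXXC1 binds unmethylated CpG and brings the complex to CpG islands, and WDR82 ties it to RNA polymerase. WDR5, RBBP5, ASH2L and DPY30 form a core that is shared with the MLL family of H3K4 methyltransferases, HCFC1 is a chromatin scaffold found in several complexes, and BOD1L is a partner of SETD1A known for protecting replication forks.

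Promoter sequence is shown for Wdr82 and Wdr5, the called genes besides Cxxc1, because CpG is the base pair step that CXXC1 binds. The 250 bases before each RefSeq start site (GRCm38.p6, plus strand for both) are at chr9:106170679-106170928 for Wdr82 and chr2:27514897-27515146 for Wdr5, written 5′ to 3′ with every CG in capitals.
Wdr82: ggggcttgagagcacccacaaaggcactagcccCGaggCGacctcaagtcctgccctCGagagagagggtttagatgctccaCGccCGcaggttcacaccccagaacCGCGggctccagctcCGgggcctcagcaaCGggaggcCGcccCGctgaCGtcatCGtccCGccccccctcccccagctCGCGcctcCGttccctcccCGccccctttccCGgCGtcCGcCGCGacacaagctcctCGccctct
Wdr5: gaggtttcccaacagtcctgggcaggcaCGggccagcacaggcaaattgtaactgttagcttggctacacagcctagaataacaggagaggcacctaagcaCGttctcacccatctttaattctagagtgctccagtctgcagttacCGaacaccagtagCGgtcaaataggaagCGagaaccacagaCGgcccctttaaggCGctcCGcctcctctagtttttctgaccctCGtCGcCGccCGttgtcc
The Wdr82 window held 24 CG and the Wdr5 window 12 CG. The motif searched was CG, which reads the same on both strands. At least 1 CG was found in 92.1% of 32851 promoter windows of this length, with a median of 6 and quartiles of 2 and 16. As many CG as in Wdr82 were found in 12.0% of windows, and as many as in Wdr5 in 33.5%. Of the 10 genes, 7 had a window in the RefSeq table. Setd1a held 25 CG, Bod1l 22, Hcfc1 19 and Rbbp5 10, and the 4 alternative starts of Dpy30 held from 1 to 34. These are letters in a window, and neither binding nor methylation was measured.

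Library totals ran from 33274855 to 49881126 estimated counts, and the 10 genes had between 2104 and 21566 counts in each library. Levels are given in CPM, the count scaled to a common library size after TMM scaling. Over all 20562 genes, edgeR's quasi-likelihood test, the source of every edgeR p given here, called 35.2% at an adjusted p below 0.05 (18.1% higher, 17.1% lower), and the groups of 5 did not overlap in 25.3%. Of the called genes 51.3% were higher, against 62.2% when libraries were scaled by size only, a scaling that moved the median log2 fold change of all genes from -0.001 to 0.051. Among the 10 genes 3 were called (30.0%), 1 higher and 2 lower, and the groups did not overlap in 2, shares near those over all genes. Cxxc1, the targeted gene, is among the 3 and among the 2, so these shares do not describe its partners alone. The median absolute log2 fold change of the 10 genes was 0.13, beside 0.23 over all genes tested. The genes tested include some with far fewer counts than these 10. The comparison was not matched for level, so it does not show that the 10 genes were steadier than others. Xist, the RNA that coats an inactive X, was above 100 CPM in control 1 and knockout 3 only.

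Marker RNA of several cell types in the buds also differed between the groups. The summed level of 9 limb mesenchyme markers was 2107 to 2249 CPM in controls and 1203 to 1360.1 CPM in knockouts, and 5 of the 9 fell and 0 rose. All 10 macrophage markers rose (summed level 57.8 to 69.7 and 208 to 246 CPM), as did 7 of 9 ectoderm, 6 of 7 endothelial, 7 of 7 erythroid and 5 of 6 muscle precursor markers. The summed levels of these 4 lists were 301 to 493 and 552 to 664 CPM for ectoderm, 248 to 287 and 308 to 358 CPM for endothelium, 2326 to 2731 and 2843 to 5813 CPM for erythroid cells, and 70.6 to 89.8 and 102 to 173 CPM for muscle precursors. Of 6 Schwann precursor and melanoblast markers 2 fell, with sums of 51.1 to 59.2 and 50.2 to 56.7 CPM. No marker was at 0 in every library. Over all genes 18.1% were called higher and 17.1% lower, and the marker lists were chosen with earlier results of these data known. In whole buds, fewer cells of a type and less RNA per cell cannot be told apart, and the part of these shifts in the values of the 10 genes was not tested.

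**Figure D1:**
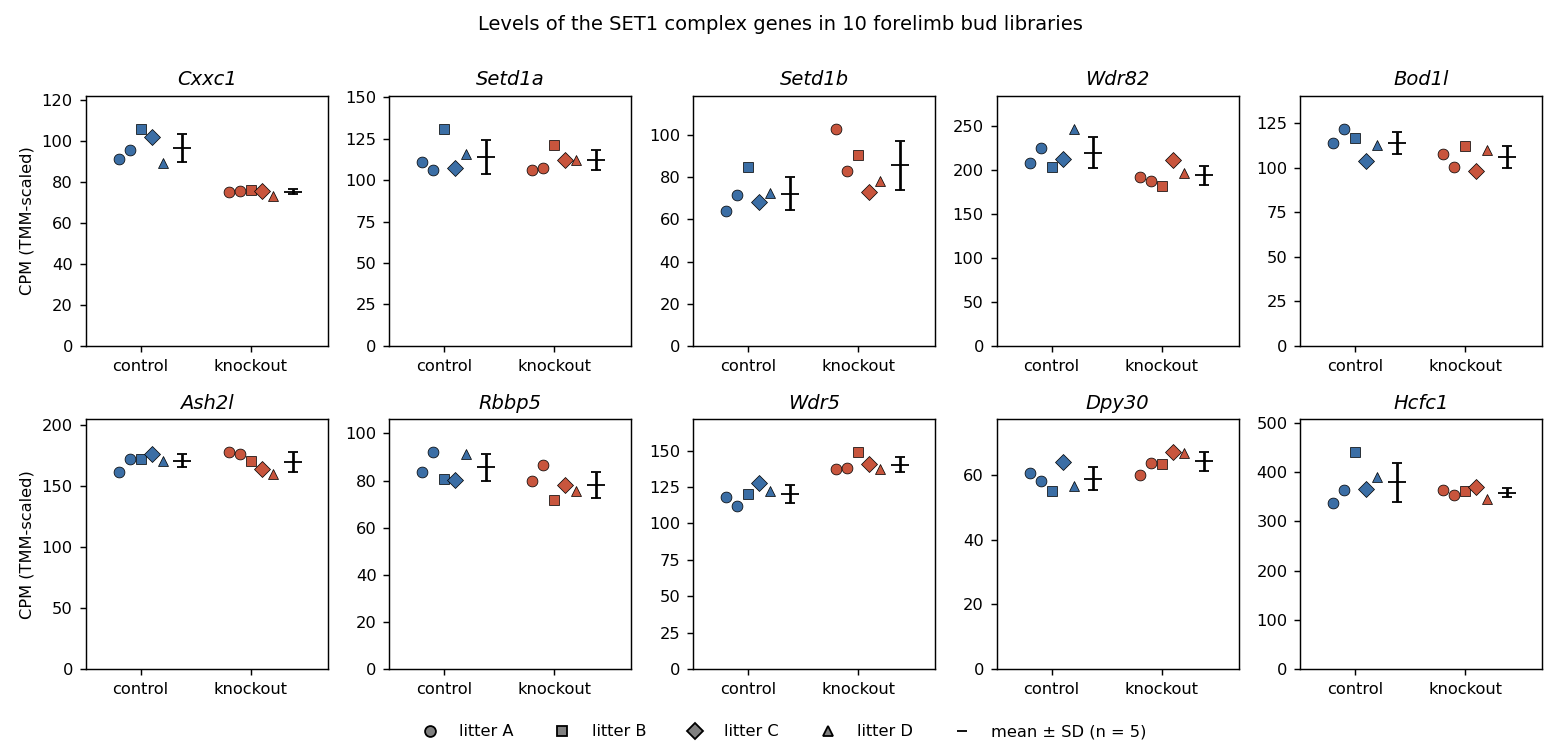
CPM of the 10 genes (vertical axes from 0) in each control (blue) and knockout (red) library, with the litter given by the symbol and the mean ± SD of 5 libraries beside each group. The knockouts lie below all controls for Cxxc1 (73.1 to 76.2 against 89.5 to 106 CPM) and above all controls for Wdr5, and the groups overlap in the other 8 panels.

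Cxxc1 (ENSMUSG00000024560, chromosome 18, 74216124 to 74221496, plus strand, GRCm38), the targeted gene, was lower in every knockout than in every control. Controls 1 to 5 held 91.4, 95.4, 106, 102 and 89.5 CPM. Knockouts 1 to 5 held 75, 75.8, 76.2, 75.8 and 73.1 CPM. The knockouts lay close together, with a coefficient of variation of 1.63% against 7.11% in controls, and control 5, of uncertain Cre status, was the lowest control. The log2 fold change was -0.36 (SE 0.05, edgeR adjusted p = 0.000144), and within litters A, B, C and D the difference was -0.31, -0.47, -0.42 and -0.29. The fall was moderate beside the rest of the transcriptome: 55.0% of the genes called lower fell further. Of all genes tested, 33.1% had a change at least as large in either direction. Neither share was matched for level. Against the 3 controls labelled without Cre the log2 fold change was -0.43. These gene-level counts cannot separate the floxed exons from the rest of the transcript.

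The catalytic subunits of the complexes are Setd1a and Setd1b. Setd1a (ENSMUSG00000042308, chromosome 7, 127776670 to 127800122, plus strand) differed little, with control libraries at 114 ± 10.2 CPM and knockout libraries at 112 ± 6.19 CPM (SD, n = 5 each) and a log2 fold change of -0.03 (SE 0.06, edgeR adjusted p = 0.748). Both groups spanned nearly the same range, 106 to 131 and 106 to 121 CPM. Setd1a shares 51.8% of its exon bases with Gm49388, a gene annotated on the same strand that held 12.1 ± 2.52 and 15.0 ± 2.81 CPM, so the division of reads between them is uncertain. With both genes counted as 1 the log2 fold change was 0.01.

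Setd1b (ENSMUSG00000038384, chromosome 5, 123142193 to 123168629, plus strand) had higher values in most knockouts but did not pass the test. Controls 1 to 5 held 63.9, 71.4, 84.8, 68.3 and 72.4 CPM. Knockouts 1 to 5 held 103, 83.1, 90.4, 73.2 and 78.2 CPM. Knockout 1 was the highest and knockouts 2, 4 and 5 lay below control 3, so the groups overlapped. The log2 fold change was 0.25 (SE 0.09, edgeR adjusted p = 0.0636). The difference was above 0 in all 4 litters, with 0.45 for litter A and 0.09 to 0.11 for the other litters. Setd1b passed when control 3 (0.31) or knockout 4 (0.30) was left out, or with library-size (0.30) or upper-quartile scaling (0.26), and without litter A the log2 fold change was 0.10.

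The balance of the enzymes was also compared inside each library, where library scaling cancels. Controls 1 to 5 had 1.74, 1.48, 1.55, 1.57 and 1.60 counts of Setd1a for each count of Setd1b. Knockouts 1 to 5 had 1.03, 1.28, 1.34, 1.54 and 1.44. The knockouts were lower apart from an overlap between knockout 4 and control 2. On the log2 scale the ratio was 0.66 ± 0.08 and 0.39 ± 0.22 (SD, n = 5 each). The difference was -0.27 (exact two-sided permutation p = 0.0159). Of the 3 ratios computed this p was the largest, and the others involve the targeted gene Cxxc1. Benjamini-Hochberg adjustment leaves the largest p as it is, so adjusting over the 3 is no further check. The ratio was lower in all 4 litters, by -0.48 in litter A, -0.20 in B, -0.03 in C and -0.15 in D. It was -0.18 without knockout 1 (exact permutation p = 0.0317), -0.13 without litter A (exact permutation p = 0.1, the smallest that 3 against 3 allows), and -0.22 against controls without Cre (exact permutation p = 0.0714). With Gm49388 added to Setd1a it was -0.23. These are ratios of counts, not of molecules, since the genes differ in length.

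**Figure D2:**
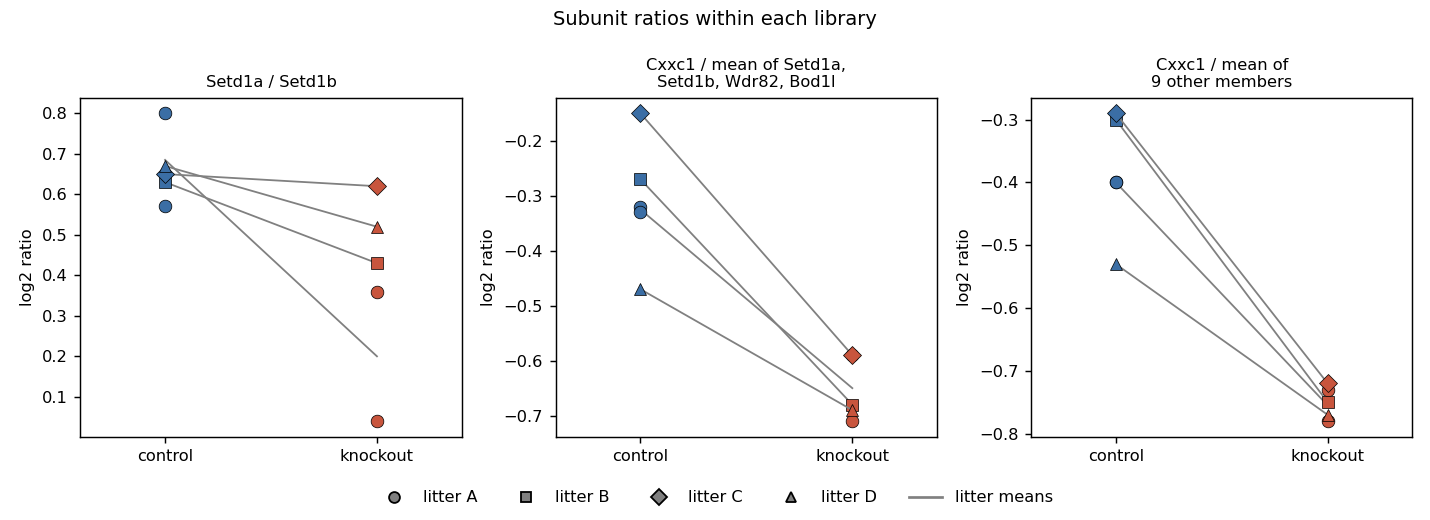
Log2 ratios within each library for Setd1a over Setd1b, and for Cxxc1 over a mean of other genes (axes do not start at 0). That mean is of Setd1a, Setd1b, Wdr82 and Bod1l, or of all 9 other genes. Symbols give the litter and grey lines join litter means. The lines fall in every litter in all 3 panels, with litter C nearly level (-0.03) for Setd1a over Setd1b.

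Wdr82, Bod1l and Cxxc1 complete the genes of the CXXC1-SETD1 branch. Wdr82 (ENSMUSG00000020257, chromosome 9, 106170928 to 106191139, plus strand), the link to RNA polymerase, fell slightly. Controls 1 to 5 held 208, 225, 204, 213 and 247 CPM. Knockouts 1 to 5 held 192, 188, 182, 211 and 197 CPM. Knockout 4 lay above controls 1 and 3 and the other knockouts lay below all controls. The log2 fold change was -0.18 (SE 0.06, edgeR adjusted p = 0.0331), and the within-litter differences ran from -0.33 in litter D to -0.01 in litter C. Among the genes called lower, 93.0% fell further, a share not matched for level. The call was lost in 9 of 24 alternatives: without control 2 (-0.17) or 5 (-0.13), without knockout 1 (-0.17), 2 (-0.17) or 3 (-0.15), without litter A (-0.17), against controls without Cre (-0.14), without the 2 libraries high in Xist (-0.17) and with library-size scaling (-0.12).

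Bod1l (ENSMUSG00000061755, chromosome 5, 41787538 to 41844315, minus strand) spanned 104 to 122 CPM in the control libraries and 98 to 112 CPM after knockout, with a log2 fold change of -0.11 (SE 0.05, edgeR adjusted p = 0.134). Cxxc1 was lower relative to its partners as well as on its own. Relative to the mean log2 CPM of Setd1a, Setd1b, Wdr82 and Bod1l, Cxxc1 stood at -0.31 ± 0.11 in controls and -0.65 ± 0.06 in knockouts (SD, n = 5 each), and the groups did not overlap (-0.47 to -0.15 and -0.71 to -0.59). Relative to all 9 other genes it stood at -0.38 ± 0.10 and -0.75 ± 0.02. Because Cxxc1 was the targeted gene, these ratios are given as a description.

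The core shared with the MLL complexes held the gene that rose. Wdr5 (ENSMUSG00000026917, chromosome 2, 27515157 to 27536535, plus strand) encodes the WD40 protein that docks on the methyltransferase. Controls 1 to 5 held 118, 112, 120.4, 128 and 122 CPM. Knockouts 1 to 5 held 137, 138, 149, 141 and 137 CPM. Every knockout was above every control. The log2 fold change was 0.22 (SE 0.04, edgeR adjusted p = 0.00183), with within-litter differences of 0.26, 0.31, 0.13 and 0.16 in litters A to D. The rise to 117% of the control level was small, and 87.8% of the genes called higher rose further, a share not matched for level. It passed the test in all 24 alternatives, with log2 fold changes from 0.19 to 0.27.

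The other 4 shared subunits did not pass. Dpy30 (chromosome 17, 74299474 to 74323944, minus strand), the small subunit that binds ASH2L, was at 58.9 ± 3.50 and 64.2 ± 2.83 CPM (0.13, SE 0.05, edgeR adjusted p = 0.0799), with differences above 0 in all 4 litters (0.06 to 0.24). It passed without control 4 (0.16) and with library-size scaling (0.18). Rbbp5 (chromosome 1, 132477365 to 132505659, plus strand), which bridges the enzyme and ASH2L, was at 85.7 ± 5.71 and 78.3 ± 5.52 CPM (-0.13, SE 0.06, edgeR adjusted p = 0.113), with differences below 0 in all 4 litters (-0.28 to -0.04), and it passed without knockout 2 (-0.17).

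Ash2l (chromosome 8, 25815996 to 25847694, minus strand), which with RBBP5 stimulates the enzyme, was nearly level. It held 171 ± 5.30 CPM in controls and 169.8 ± 7.85 CPM in knockouts, a log2 fold change of -0.01 (SE 0.04, edgeR adjusted p = 0.926), and the litters fell on both sides of 0 (-0.11 to 0.09). Its direction was above 0 with library-size (0.05) and upper-quartile scaling (0.01). Hcfc1 (chromosome X, 73942792 to 73966357, minus strand) held 337, 364, 440.5, 365 and 389 CPM in controls 1 to 5. Knockouts 1 to 5 held 363, 353, 362, 369 and 345 CPM, inside the range of the controls. The log2 fold change was -0.08 (SE 0.06, edgeR adjusted p = 0.356), with litters on both sides of 0. It was -0.02 without control 3, the highest control, and -0.13 without the 2 libraries high in Xist.

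**Figure D3:**
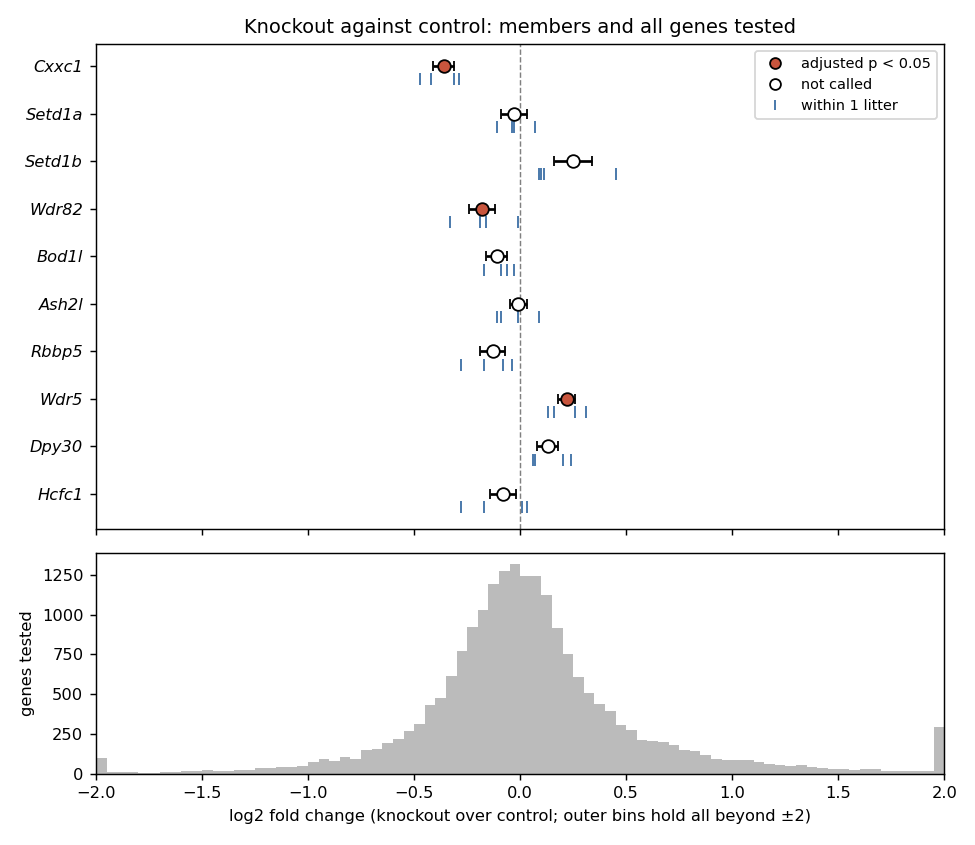
Upper panel: log2 fold change of each gene with its standard error, filled red where the edgeR adjusted p is below 0.05, and blue ticks for the difference within each of the 4 litters. Lower panel: number of genes tested in each bin of log2 fold change, with everything beyond ±2 in the outer bins. The 10 genes lie between -0.36 and 0.25, in the central part of the distribution of all genes.

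The genes also differed in level. Per kilobase of annotated exon, Dpy30 was the highest in controls at 51.4 ± 3.05 CPM per kb, followed by Hcfc1 at 45.3 ± 4.66 CPM per kb, and the ranges of the 2 overlapped. Wdr82 (34.6 ± 2.75 CPM per kb) and Wdr5 (33.4 ± 1.65 CPM per kb) overlapped, as did Cxxc1 (24.6 ± 1.75 CPM per kb) and Rbbp5 (21.8 ± 1.45 CPM per kb). Ash2l followed at 19.0 ± 0.591 CPM per kb, with a range that overlapped that of Setd1a (16.8 ± 1.5 CPM per kb). Bod1l (9.50 ± 0.532 CPM per kb) and Setd1b (5.98 ± 0.645 CPM per kb) were the lowest, and their ranges were apart from each other and from the rest. In knockouts Cxxc1 was at 19.2 ± 0.313 CPM per kb (SD, n = 5 for all levels). The scale matters for the middle of this order: per kilobase of the longest coding transcript, Ash2l rose from rank 7 to rank 3 (51.6 ± 1.60 CPM per kb) and Hcfc1 moved from rank 2 to rank 4, while Dpy30 stayed first and Setd1a, Bod1l and Setd1b stayed last in the same order.

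By the root mean square difference of log2 CPM over the 10 libraries, with each gene centred on its own mean, the genes with the pattern most like Cxxc1 among 9709 searched were Mxi1 (0.0553), Bcl2l12 (0.0557), Supt7l (0.0583), Shf (0.0599) and Elk1 (0.0620). Mxi1, on chromosome 19, was at 41.1 ± 3.0 and 33.5 ± 1.23 CPM, and Elk1, on chromosome X, at 40.6 ± 2.39 and 30.4 ± 0.681 CPM (SD, n = 5 each). Gm15545, which is antisense to Bcl2l12, covers 28.9% of its exon bases, and without strand information reads from these shared bases cannot be told apart. The genes named here were picked as the nearest, so every other gene is further away. The other subunits ran from 0.161 for Hcfc1 (rank 2062 among the 9709) to 0.332 for Setd1b (rank 7951).

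The wider H3K4 pathway was described with 8 lists of genes that work with or beside the SET1 complexes, 67 genes in all, each tested in the same fit. Of these 12 rose, 11 fell and 44 did not pass, 34.3% called beside 35.2% over all genes, and their median log2 fold change was -0.02. Of 10 MLL enzymes and their own partners, 2 rose, 2 fell and 6 did not pass (median -0.05). Pagr1a, among the 6, shares 98.7% of its exon bases with Gm42742 on the same strand, so the division of reads between them is uncertain. The methyltransferase genes Kmt2b (115 ± 9.30 and 132 ± 5.40 CPM, 0.20, SE 0.06) and Kmt2d (157 ± 11.8 and 181 ± 4.83 CPM, 0.21, SE 0.05) rose, and Kmt2c fell (83.1 ± 10.7 and 64.5 ± 8.61 CPM, -0.37, SE 0.10). Men1, the menin gene of the MLL complexes, fell by 0.19 (SE 0.06), but its call was lost in 9 of 24 alternatives, among them without control 3 (-0.18) or 5 (-0.15), without knockout 3 (-0.18), 4 (-0.17) or 5 (-0.17), and with the replicate block by number (-0.19). Of 5 H3K4 demethylases Kdm5b fell (259.6 ± 17.7 and 225 ± 10.2 CPM, -0.21, SE 0.05) and 4 did not pass.

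**Figure D4:**
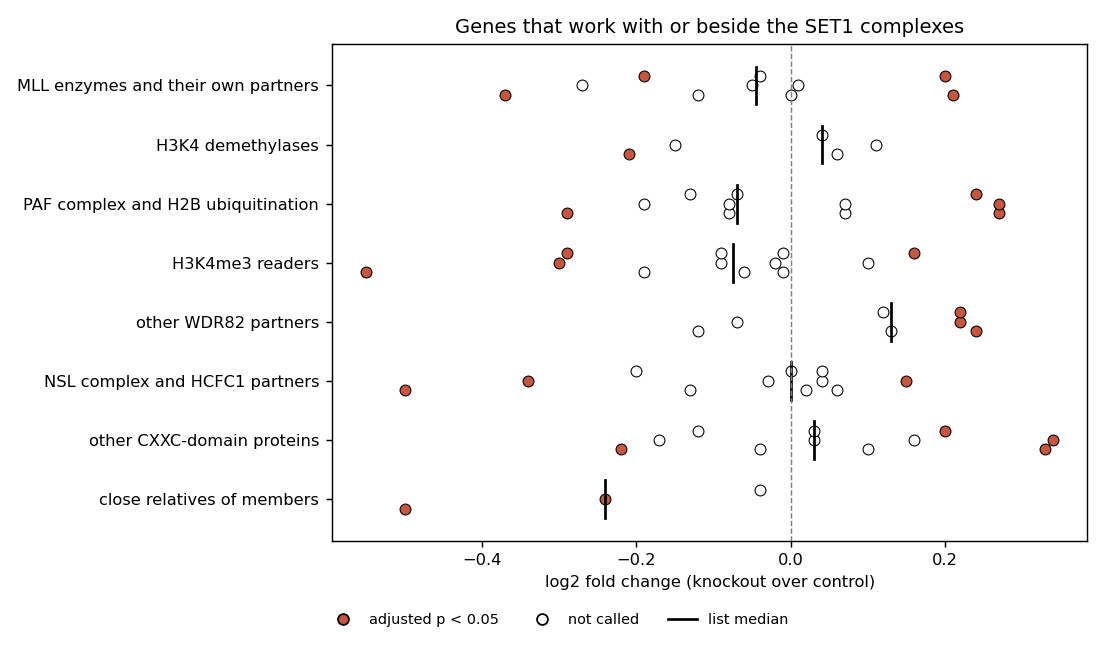
Log2 fold change of each gene in the 8 lists, red where the edgeR adjusted p is below 0.05, with the median of each list as a black line; Kmt2a, Kmt2b and Hcfc2 stand in more than 1 list. Rises and falls are mixed in most lists, with medians between -0.24 and 0.13.

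The PAF complex travels with RNA polymerase and promotes ubiquitination of histone H2B, which stimulates H3K4 methylation. Of 11 genes of this step 3 rose, 1 fell and 7 did not pass (median -0.07). The PAF subunit genes Paf1 (79.9 ± 1.62 and 94.4 ± 5.72 CPM), Leo1 (63.2 ± 2.53 and 76.2 ± 4.14 CPM) and Cdc73 (42.6 ± 4.65 and 51.3 ± 3.53 CPM) rose, with log2 fold changes of 0.24, 0.27 and 0.27. Wac, a partner of the H2B ubiquitin ligase, fell by 0.29 (SE 0.05). Among 12 readers of trimethylated H3K4, 1 rose, 3 fell and 8 did not pass (median -0.07). Phf13 (47.5 ± 3.46 and 32.3 ± 1.81 CPM, -0.55), Spin1 (250.4 ± 8.39 and 203 ± 7.90 CPM, -0.30) and Ing4 (105 ± 5.53 and 86.3 ± 3.83 CPM, -0.29) fell, and in each of these every knockout was below every control. Ing4 shares 34.9% of its exon bases with Gm44597 on the same strand. Ing5 rose by 0.16, but its call was lost in 14 of 24 alternatives, with a replicate block by number (0.16) or litter (0.16), without control 1 (0.13), 2 (0.16), 4 (0.14) or 5 (0.16) and without knockout 1 (0.13), 2 (0.17), 3 (0.14) or 4 (0.15) among them.

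WDR82, WDR5 and HCFC1 also work outside the SET1 complexes. Of 7 other partners of WDR82, which act in transcription termination and dephosphorylation, 3 rose, 0 fell and 4 did not pass (median 0.13). Ppp1cc, a catalytic subunit of protein phosphatase, rose from 331 ± 28.8 to 391 ± 20.8 CPM (0.24, SE 0.06) and Srrt, which couples termination to RNA turnover, from 269 ± 8.02 to 313 ± 14.8 CPM (0.22, SE 0.04). Ppp1r10, the phosphatase scaffold, rose by 0.22 (SE 0.08), but its call was lost in 12 of 24 alternatives, with the replicate block by number (0.22), without control 1 (0.15), 2 (0.21) or 4 (0.23) and without knockout 1 (0.21), 3 (0.22) or 4 (0.18) among them. Of 11 genes of the NSL acetyltransferase complex and HCFC1 partners, 1 rose (Kansl1, 0.15), 2 fell and 8 did not pass (median 0.00). Phf20, a subunit of that complex, was at 90.1 ± 6.47 and 71.3 ± 5.78 CPM (-0.34, SE 0.06).

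Among close relatives of the 10 genes, Hcfc2, related to Hcfc1, fell from 28.9 ± 3.83 to 20.5 ± 2.37 CPM (-0.50, SE 0.10). Bod1, related to Bod1l, was at 83.4 ± 1.42 and 81.1 ± 1.49 CPM (-0.04, SE 0.03, edgeR adjusted p = 0.397), and above 0 (0.01) with library-size scaling. Wdr5b, related to Wdr5, was at 9.52 ± 0.684 and 8.08 ± 0.614 CPM and fell by 0.24 (SE 0.09), opposite in sign to Wdr5. That call was lost in 16 of 24 alternatives, with a replicate block by number (-0.24) or litter (-0.24), without control 1 (-0.21), 2 (-0.23) or 5 (-0.22) and without knockout 1 (-0.24), 2 (-0.19), 3 (-0.24) or 4 (-0.24) among them.

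CXXC1 shares its CpG-binding CXXC domain with other proteins, and of 11 such genes 3 rose, 1 fell and 7 did not pass (median 0.03). Cxxc4 (23.2 ± 2.44 and 29.2 ± 2.48 CPM, 0.33) and Cxxc5 (63.0 ± 6.15 and 79.6 ± 5.61 CPM, 0.34), both known as regulators of WNT signaling, rose with Kmt2b. Fbxl19, which links CpG islands to a ubiquitin ligase and mediator, fell from 189 ± 10.6 to 163 ± 12.2 CPM (-0.22, SE 0.06). Without litter A, 3 against 3, 13 of the 67 genes were called, and among those named Cdc73 (0.21), Cxxc4 (0.29), Cxxc5 (0.22), Fbxl19 (-0.25), Kansl1 (0.12), Kmt2b (0.22), Kmt2c (-0.34), Kmt2d (0.17), Ing5 (0.11), Ppp1r10 (0.16) and Wdr5b (-0.14) no longer passed. Against controls without Cre, Kansl1 (0.13), Kmt2b (0.15), Kmt2d (0.18), Men1 (-0.16), Ing5 (0.14), Ppp1r10 (0.18) and Wdr5b (-0.18) did not pass. Without the 2 libraries high in Xist, Kansl1 (0.14), Kmt2b (0.18), Kmt2c (-0.27), Men1 (-0.20), Ing5 (0.12), Ppp1r10 (0.15) and Wdr5b (-0.21) did not pass.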

How the data were processed

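Total RNA of 10 forelimb bud samples was sequenced. The deposited table held estimated counts per Ensembl gene, made by the authors. The names DESeq2 1.16.1, mm10, R 3.4.1 and Salmon 0.8.2 appear, without roles, per the submitters' processing notes. The sources used here do not state how strand was treated in counting. Estimated counts were rounded before testing. A second table deposited by the authors, named as FPKM, held a signal equal to each rounded count over a constant of its library (100% of values above 0 within 0.01) and served only as an alternative. Of the table's columns, 0 belonged to no sample. Symbols came from GENCODE M21 (GRCm38) for 47224 genes.

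Groups were taken from sample titles. In R 4.3.3 with edgeR 4.0.16, filterByExpr kept genes by group (count 10, total 15), TMM set the scaling, and glmQLFit with glmQLFTest gave the test, without covariates, with Benjamini-Hochberg adjustment over 20562 genes and a threshold of 0.05. Each SE was obtained as the size of the log2 fold change over the root of the F statistic. The code of the test was run on simulated data as a check, and no calibration is claimed from it. Log2 CPM used a prior count of 2. A count of 0 would allow up to 0.0601 to 0.0902 CPM (3 counts, counting error only). Libraries of one group always differed beyond sampling noise (chi-square over its degrees of freedom 15.9 to 44.6).

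Control and knockout libraries with the same number share a litter in the labels, and their deviations from the group means correlated from -0.02 to 0.20. Alternatives were other scalings (DESeq2 1.42.0 among them), filters, the second table with limma 3.58.1 (pseudocounts 1 and 0.1), left-out libraries, replicate blocks, somite stage, and subsets of samples; adding Gm49388 to Setd1a was chosen after seeing the data. The 10 genes and all lists were chosen with earlier results of these data known. Named genes were the 10, from each list at most 4 called genes in order of adjusted p, all close relatives, and the 5 nearest to Cxxc1 with a mean of at least 10 CPM.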

Additional observations from a re-analysis of the deposited data

How the results depend on the processing

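Cxxc1 (-0.43 to -0.31) and Wdr5 kept their direction and call in all 24 alternatives, and Setd1a, Bod1l, Ash2l and Hcfc1 passed in none. With library-size scaling 3 of the 10 genes were called higher (Wdr5, Setd1b, Dpy30) and 1 lower, and with upper-quartile scaling 2 were higher. The number called lower was 1 without litter A, against controls without Cre, and without the libraries high in Xist. When single libraries were left out, 1 to 2 were higher and 1 to 2 lower. Leaving out single libraries moved Setd1a between -0.06 and 0.02 and Ash2l between -0.03 and 0.01. Values that changed sign were all within 0.05 of 0: Setd1a with library-size scaling (0.02), without control 3 (0.02) and summed with Gm49388 (0.01), Bod1 with library-size scaling (0.01), and Ash2l with library-size (0.05) and upper-quartile scaling (0.01), with a filter of 1 CPM (0.00) and without control 4, knockout 4 or knockout 5 (0.01 each).

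Without litter A, 4023 genes were called over the whole table (2002 higher, 2021 lower) and 13 of the listed genes; fewer samples were tested. The Setd1a to Setd1b difference was -0.13 there and -0.22 against controls without Cre, and the Cxxc1 ratios were -0.36 and -0.38 without litter A, where 3 against 3 cannot pass. Leaving out single libraries gave -0.33 to -0.18, -0.38 to -0.30 and -0.40 to -0.34 for the 3 ratios. A replicate block by number or litter changed no call among the 10 genes (Cxxc1 -0.36 and Wdr5 0.22 in both), and the Setd1a to Setd1b difference with a replicate block by litter was -0.22 (exact permutation p = 0.0417, the smallest within litters). SEs of 0.04 to 0.09 mean that changes of a few percent were not detectable. Larger differences also went uncalled: Setd1b stood at 119%, Dpy30 at 109% and Rbbp5 at 91.3% of the control level. A gene that did not pass is therefore not shown to be unchanged.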
